A study of Homo sapiens with 4 samples.

Results

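Chromatin accessibility at SIPA1L3, MXRA7, CDH13, BRD9, TRIP13 and TMEM135 was measured by ATAC-seq in the human thyroid cancer line BCPAP. Cells treated with 5-azacytidine gave 2 libraries and untreated cells gave 2, and hg19 peak lists were deposited for all 4. Separate cultures are not stated for the replicates, whose spread may thus be technical. The genes were chosen from the readout: each lies in a window with 1 of the 5 best gained sites, which are sites listed for both treated libraries but for no untreated library. BRD9 and TRIP13 share a window, so the 6 genes fall into 5 windows. The 5 windows held 518 of the 373425 sites on chromosomes 1 to 22 and X, a site being the union of peaks that share at least 1 bp. The ranking that chose them used treated against untreated peaks, so every comparison of treated with untreated libraries in these windows is a description and carries no test. The thyroid identity of the cells was not checked here.

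In ATAC-seq, transposase cuts exposed DNA and reads pile up where chromatin is open. The cytidine analogue 5-azacytidine, once built into DNA, traps DNA methyltransferases, so that CpG methylation is lost as cells divide. Methylated CpGs in promoters and enhancers are often found with closed chromatin, and their loss can be followed by opening. Of the 6 genes, CDH13 encodes T-cadherin, a cadherin held in the membrane by a lipid anchor, and its promoter is often methylated in carcinomas. SIPA1L3 encodes a protein with a Rap GTPase-activating domain that takes part in epithelial polarity. BRD9 is a bromodomain subunit of a form of the BAF chromatin remodelling complex. TRIP13 is an AAA+ ATPase that remodels HORMA domain proteins such as MAD2 at the spindle checkpoint. TMEM135 is a membrane protein of mitochondria and peroxisomes, and MXRA7 is a transmembrane protein linked to the remodelling of extracellular matrix.

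BRD9 and TRIP13 lie head to head on opposite strands, so that accessible DNA between their starts cannot be assigned to either gene. The stretch between the outermost annotated starts is 82 bases in RefSeq (GRCh38.p14, chr5:892802-892883, plus strand) and holds 12 CpGs, the target of DNA methyltransferases, shown in capitals.
BRD9 to TRIP13: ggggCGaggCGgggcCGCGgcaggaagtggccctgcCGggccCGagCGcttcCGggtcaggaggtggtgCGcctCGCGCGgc
Promoters of 5 of the 6 genes, all but CDH13, were matched in the RefSeq table, which gives 300 bases per promoter, from 250 before to 50 after the start. The motif CG, which reads the same on both strands, was counted in each. BRD9 had 43 and 42 at its 2 starts, TRIP13 had 41, TMEM135 had 38 and SIPA1L3 had 32. MXRA7 had 39 at 1 start and 12 and 8 at 2 others. The median of all 35116 promoters in the table was 14, and 96.0% of them held at least 1. Each of these 5 genes thus had at least 1 start richer in CpG than 81.1% of all promoters. For MXRA7 this held at 1 start only. The share of all genes with such a start was not counted, so nothing is read from this. These positions are not on the build of the peaks, so the promoters were not matched to sites.

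Coverage is given as the number of reads at the summit of a peak, derived from the authors' fold enrichment, and the lowest listed value was 4 in every list. The total number of reads is unknown. As implied by the fold values, background coverage was 0.898 and 0.875 in the treated lists, against 0.913 and 0.898 in the untreated lists. The lists held 259572 and 245142 peaks in treated replicates 1 and 2, and 221110 and 223345 in untreated replicates 1 and 2. Peaks of treated replicate 1 were lower than those of the others. At sites present in all 4 lists the median coverage was 11 and 16 in the treated libraries and 23 and 18 in the untreated libraries.

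The SIPA1L3 site, on chromosome 19 from 38663879 to 38664394, was the strongest gained site, with a coverage of 36 in treated replicate 1 and 45 in treated replicate 2. Its summits in the treated libraries lay 16 bp apart, and each was the sole summit of its original peak. It stood apart from other strong peaks. A weak peak of treated replicate 1 lay 865 bp to the left, with a coverage of 5. The nearest peak of untreated replicate 1 began 9037 bp to the right, with a coverage of 8. That of untreated replicate 2 began 2140 bp to the right, with 4. By coverage the gained site ranked 4 of 116 sites with a peak of treated replicate 1 in the window and 7 of 111 with a peak of treated replicate 2. It therefore stood among the more accessible sites of the gene after treatment, while nothing was listed there without it. The rule required the lack of untreated peaks and favoured a high place in the treated lists, so both are descriptions.

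**Figure D1:**
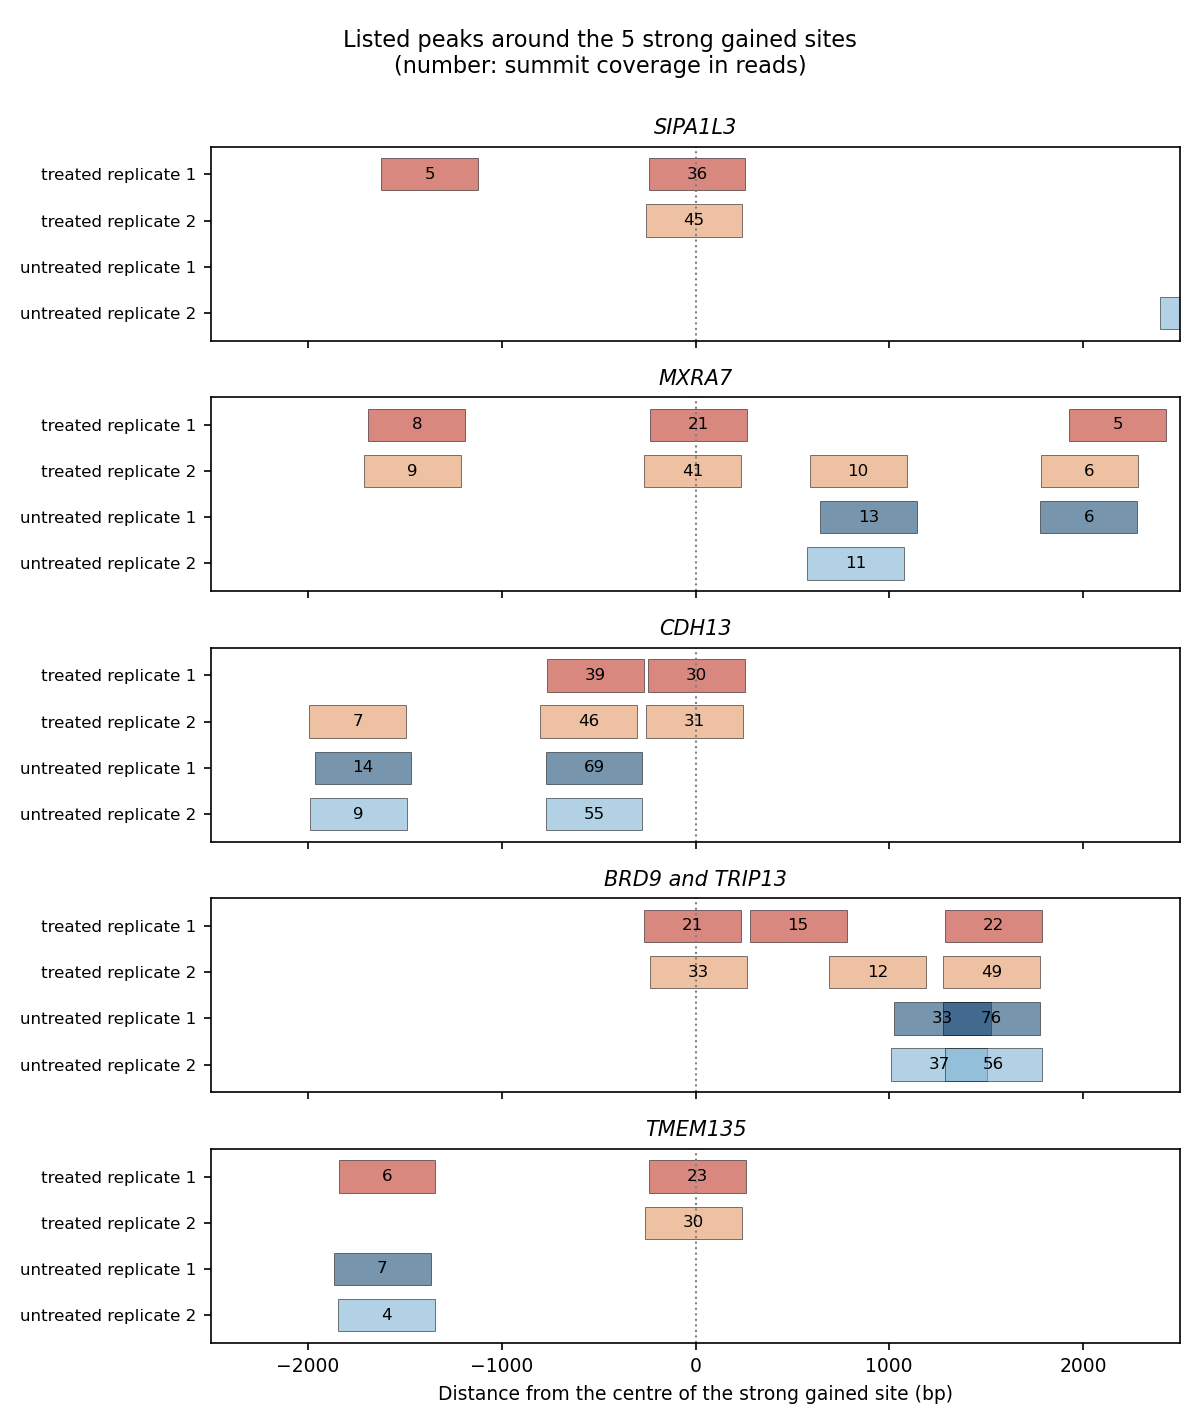
Peaks listed around each of the 5 strong gained sites, by library, with distance from the centre of the site in bp on the horizontal axis and the summit coverage in reads printed on each 500 bp interval. At CDH13 the gained site lies beside peaks of all 4 lists, at BRD9 and TRIP13 a peak of treated replicate 1 lies 16 bp away and untreated peaks 743 bp or more away, and at SIPA1L3 and TMEM135 no other peak of comparable coverage lies near.

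The TMEM135 site, on chromosome 11 from 87002838 to 87003355, was isolated as well. Its coverage was 23 in treated replicate 1 and 30 in treated replicate 2, with summits 18 bp apart. A weak site 1084 bp to the left had a coverage of 6 in treated replicate 1, while the untreated libraries had 7 and 4. The next site present in all 4 lists lay 60418 bp away. Within the window of the gene, the gained site ranked 2 of 19 sites in treated replicate 1 and 3 of 16 in treated replicate 2.

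The MXRA7 site, on chromosome 17 from 74692808 to 74693339, differed most between the treated libraries. Its coverage was 21 in treated replicate 1 and 41 in treated replicate 2, and the summits lay 32 bp apart. A second, weak gained site with a coverage of 8 and 9 lay 923 bp to its left. To its right, at 311 bp, was a site with a coverage of 10 in treated replicate 2 and of 13 and 11 in the untreated ones, and treated replicate 1 had no peak there. The strong gained site thus lay between a weak gained site and a weak site listed for both untreated libraries and treated replicate 2. In treated replicate 2 its summit carried the letter b, which the peak caller gives to the second summit of a peak, and the summit a was not listed.

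The site of BRD9 and TRIP13, on chromosome 5 from 891170 to 891697, had a coverage of 21 in treated replicate 1 and 33 in treated replicate 2, with summits 28 bp apart. It lay 16 bp from the edge of a strong site found in all 4 lists, from 891714 to 893223, and that edge was set by a peak of treated replicate 1 with a coverage of 15. The nearest peaks of untreated replicates 1 and 2 lay 761 and 743 bp away. The highest peaks of the neighbour began 1278 to 1290 bp from the centre of the gained site and had a coverage of 22 and 49 in treated replicates 1 and 2, against 76 and 56 in untreated replicates 1 and 2, so the treated libraries lay below the untreated ones there. In treated replicate 1 the gained site was the first summit of the same original peak as its neighbour. In the untreated lists the original peak of the neighbour began 355 and 400 bp to the right of the end of the gained site, so it did not reach into it. Both lists lacked the summit a of that peak, which came before the listed ones but after the peak's start, and so outside the gained site.

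The CDH13 site, on chromosome 16 from 83739952 to 83740460, had a coverage of 30 in treated replicate 1 and 31 in treated replicate 2, with summits 9 bp apart. It lay 14 bp from the strongest site of the window, from 83739403 to 83739937, which had a coverage of 39 and 46 in treated replicates 1 and 2, against 69 and 55 in untreated replicates 1 and 2. In treated replicate 2 the gained site and this neighbour were summits b and a of 1 original peak. In both untreated lists the neighbour carried the letter a and no other summit of that peak was listed. At least 1 further summit to the right of it had therefore been called in each untreated library, at a position that the lists used here do not give. The absence of untreated accessibility at the CDH13 site is for this reason less certain than at the other 4 sites, since at those the untreated lists skipped no peak number or summit letter within the site. A letter was missing in this way at 10.5% of all 15707 gained sites, a peak number at 24.4%, and either at 32.6%. Among gained sites within 150 bp of a site found in all 4 lists, a letter was missing at 24.2%. Missing letters were common in every list. Of peaks with several summits, 81.5% and 82.6% lacked a letter in treated replicates 1 and 2. In untreated replicates 1 and 2 the shares were 86.2% and 85.3%.

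**Figure D2:**
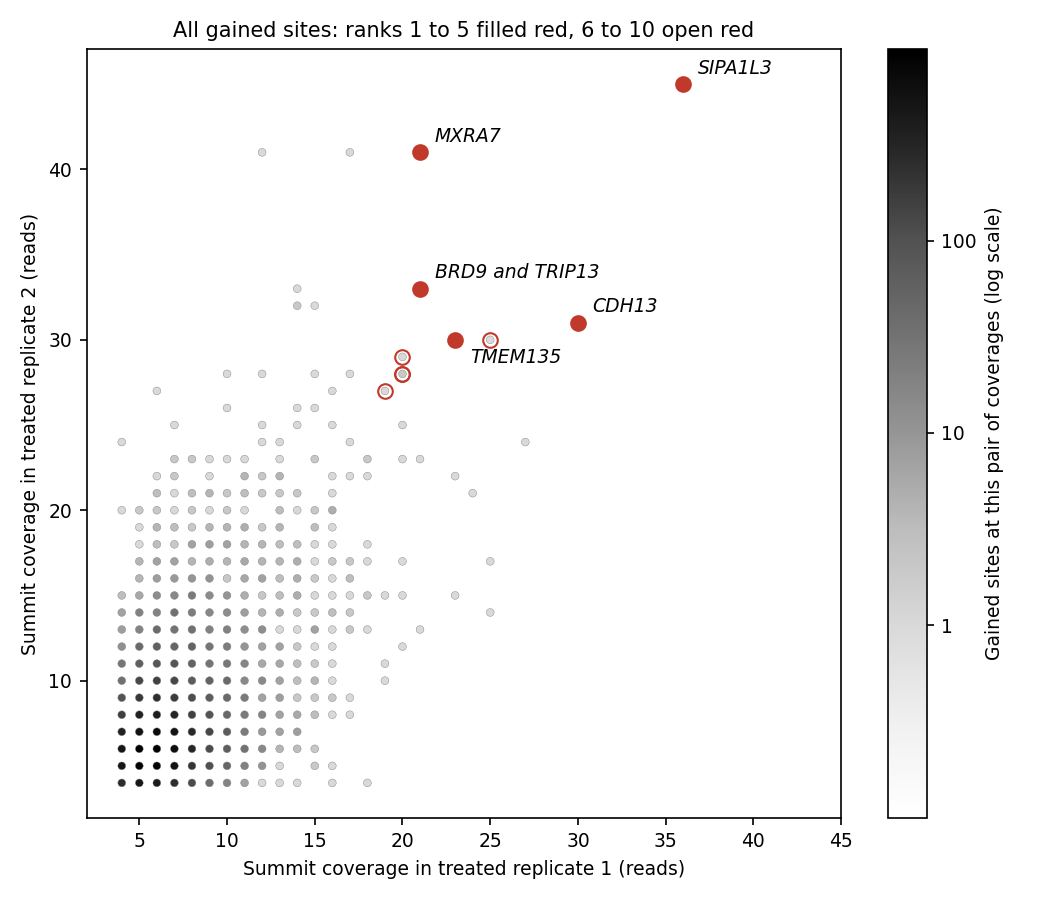
Summit coverage in reads of all 15707 gained sites in treated replicate 1 (horizontal axis) and treated replicate 2 (vertical axis), with the number of sites at each pair of values in grey on a log scale. The 5 chosen sites, filled red, reach 36 and 45 at SIPA1L3, far above the median of 6 in each library, and TMEM135, at 23 and 30, lies beside the open circle of the next site in the ranking, at 25 and 30.

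At the 5 chosen sites the authors' fold enrichment was 11.6 to 24.5 and their −log10 q was 19.6 to 57.5. The ranking took the worse of the 2 percentiles by p-value in the treated lists. The site ranked 5, at TMEM135, and the site ranked 6, on chromosome 20 from 48319373 to 48319874, had the same value of 10.1%. The coverage of the site ranked 6 was 25 in treated replicate 1 and 30 in treated replicate 2, so the limit of 5 sites cut through a tie. That site lacked a peak number in an untreated list. Gained sites with 20 or more reads in each treated library numbered 15, or 0.00402% of all sites, and included the 5 chosen ones. Of the 15, 6 lay within 150 bp of a site found in all 4 lists, where 10.5% of all 15707 gained sites did.

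The windows other than that of TMEM135 held further gained sites. The 5 chosen sites headed the ranking of all gained sites, so the others ranked lower by the rule. The windows of the 6 genes held 34 gained sites in all, 6.56% of their sites, where 4.21% of all sites were gained. Since each window was chosen for holding a gained site, nothing is read from this difference. Apart from the 5 chosen ones there were 29, with a median coverage of 7 in each treated library. The median of all gained sites was 6 in each, so these 29 were not weaker than gained sites in general. None of the 29 reached 10 in both libraries, as 519 of all 15707 gained sites did, or 0.139% of all sites. The 29 are to be compared with the 15707 gained sites rather than with all sites. Few of those 15707 reached 10 in both libraries, so its absence among 29 does not show these to be weaker. The highest coverages among the 29 were 11 in treated replicate 1 and 23 in treated replicate 2. At 9 of the 29 a peak number or summit letter was missing from an untreated list, where the share over all gained sites was 32.6%. Lost sites, with a peak in both untreated lists and in neither treated list, numbered 8, or 1.54% of the sites against 3.35% of all sites. Leaving out a library drops a condition and raises such counts by construction: gained sites were 113 without treated replicate 1, 139 without treated replicate 2, and 52 and 51 without untreated replicates 1 and 2. Lost sites were 17 and 24 without treated replicates 1 and 2, and 48 and 40 without untreated replicates 1 and 2.

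**Figure D3:**
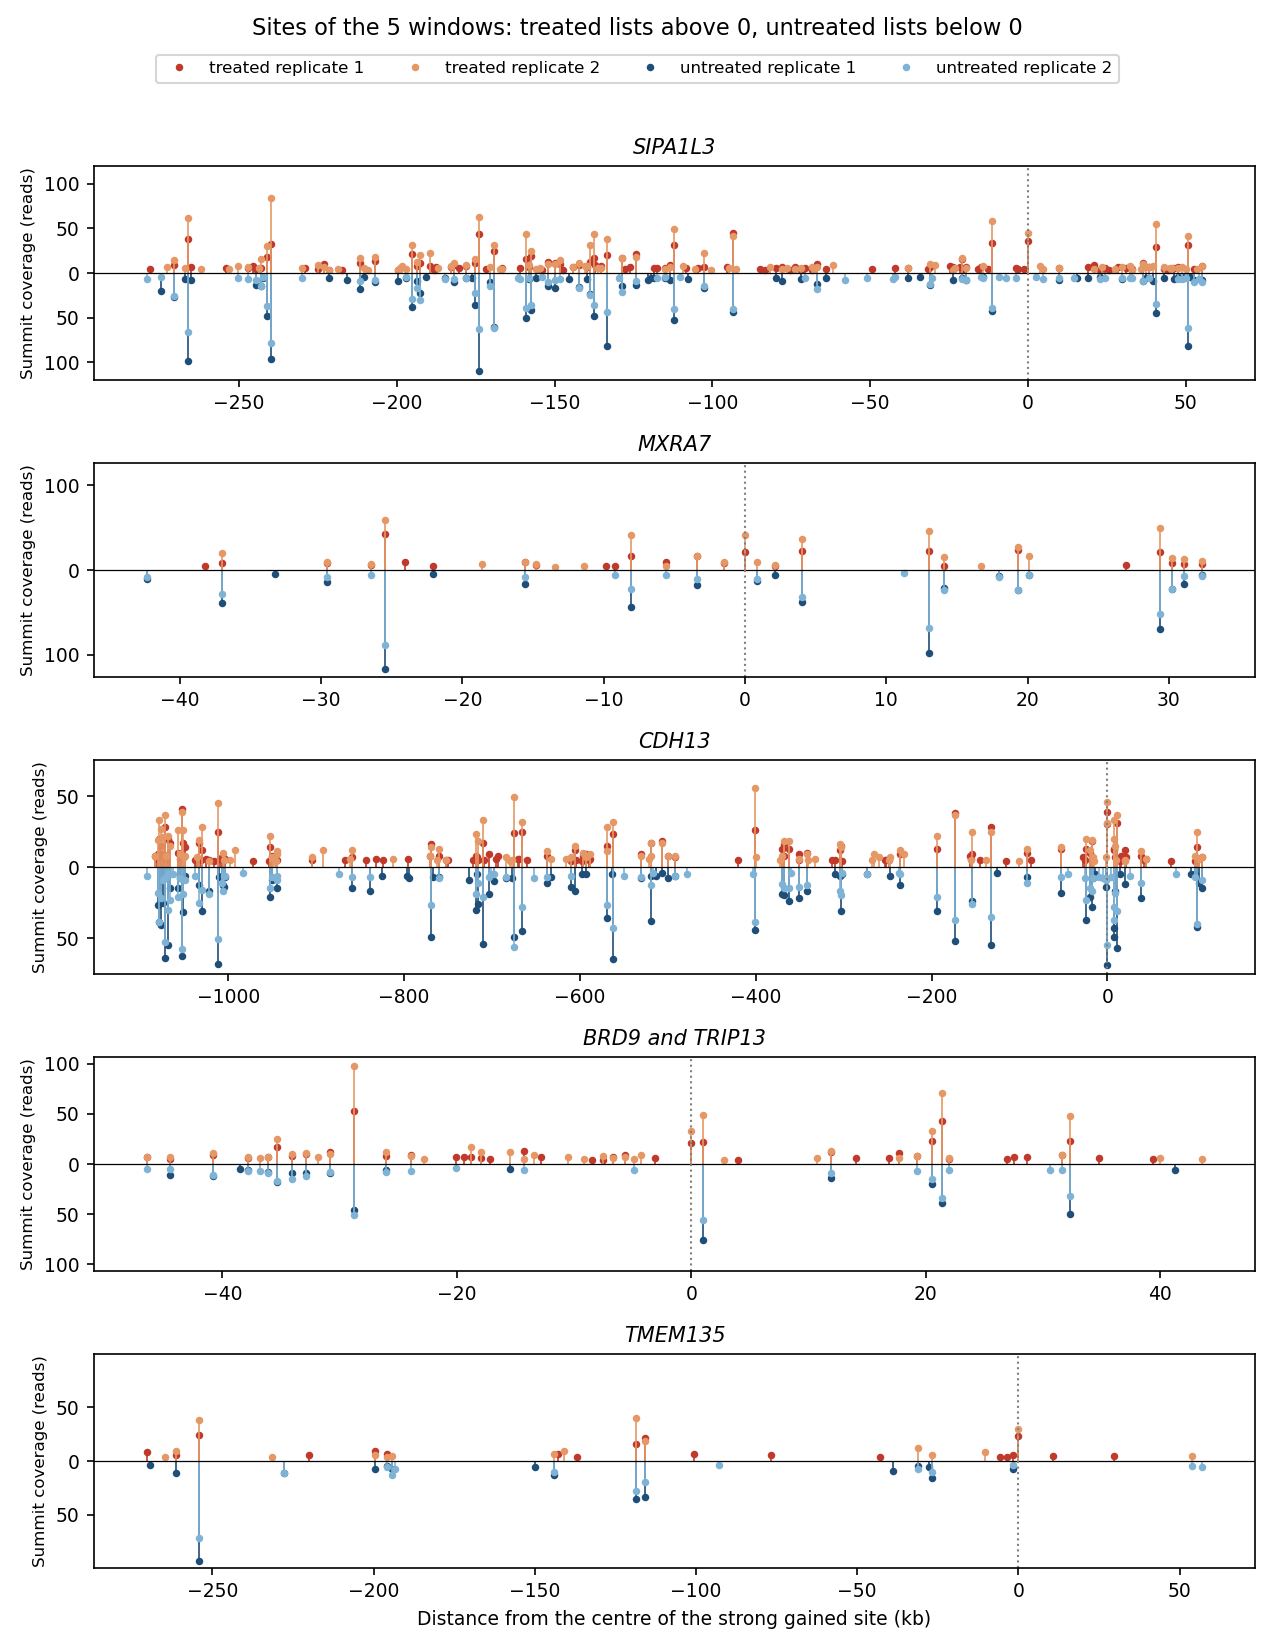
Summit coverage in reads of all 518 sites of the 5 windows by distance in kb from the centre of the strong gained site, with the treated lists plotted above 0 and the untreated lists below 0. The dotted line marks the gained site, where points stand above 0 only, and the untreated points that appear to share that line at CDH13 and at BRD9 and TRIP13 belong to the neighbouring sites.

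SIPA1L3 had 187 sites in a window of 340 kb, of which 12 were gained and 3 lost. Beside the strong one, the site from 38474507 to 38475037 had 23 reads in treated replicate 2 but 8 in treated replicate 1, and the other 10 had at most 10 in either library. At 3 of these 11 sites a peak number or summit letter was missing from an untreated list. The lost site with the highest lower value, from 38479243 to 38479827, had 5 and 7 in untreated replicates 1 and 2. Another lost site, from 38389152 to 38389806, had more reads in untreated replicate 1, with 20, but 4 in untreated replicate 2. The strongest site of the gene over the 4 lists, from 38424170 to 38424701, had a coverage of 33 and 84 in treated replicates 1 and 2, against 96 and 78 in untreated replicates 1 and 2. Among the sites present in all 4 lists, the highest ratio of treated to untreated coverage was from 38643015 to 38643553, to the left of the gained site. There the coverage was 16 and 17 in the treated libraries, against 6 and 7 in the untreated libraries, a ratio of means of 2.54. The largest fall was at 38393173 to 38393708, with 9 and 15 in the treated libraries and 27 and 26 in the untreated libraries.

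CDH13 had 201 sites in the widest window, of 1215 kb, of which 11 were gained and 2 lost. The 10 other gained sites had a coverage of 5 to 8 in treated replicate 1 and of 5 to 10 in treated replicate 2. At 4 of these 10 a peak number or summit letter was missing from an untreated list. The stronger lost site, from 82900884 to 82901420, had 17 and 7 in untreated replicates 1 and 2. Among the 62 sites found in all 4 lists, the lowest ratio was at 82717761 to 82718366, with a coverage of 5 and 4 in the treated libraries, against 17 and 19 in the untreated libraries. The highest was at 82690742 to 82691281, with 14 and 8 in the treated libraries and 6 and 9 in the untreated libraries, where the groups overlapped.

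MXRA7 had 36 sites in 75 kb, of which 3 were gained and 2 lost. Its strongest site, from 74667015 to 74668209, had a coverage of 42 and 59 in treated replicates 1 and 2, against 117 and 88 in untreated replicates 1 and 2. The largest fall was from 74705333 to 74706816, at 22 and 46 in the treated libraries and 98 and 68 in the untreated libraries. The stronger lost site, from 74650473 to 74651025, had 11 and 8 in the untreated libraries. The highest ratio was at 74724692 to 74726154, where the coverage was 7 and 11 in the treated libraries and 6 and 7 in the untreated libraries.

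TMEM135 was sparse, with 36 sites in 330 kb, and its 1 gained site was the strong one. Its 1 lost site, from 86774994 to 86775514, had a coverage of 11 in each untreated library. Only 4 sites were found in all 4 lists. The strongest, from 86747892 to 86749720, fell to 24 and 38 in treated replicates 1 and 2, against 93 and 72 in untreated replicates 1 and 2, a ratio of means of 0.376. The site with the highest ratio, from 86806880 to 86807431, had a coverage of 7 and 4 in the treated libraries and of 5 and 6 in the untreated libraries, a ratio of 1.

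BRD9 and TRIP13 had 58 sites in 90 kb, of which 7 were gained and 0 lost. The other 6 gained sites lay on both sides of the strong one. The pair from 872404 to 872923 and from 872948 to 873977 had a coverage of 7 and 6 in treated replicate 1 and of 17 and 12 in treated replicate 2, and a peak number was missing from an untreated list at both places. Of the sites with a peak in 1 list only, 13 and 10 belonged to treated replicates 1 and 2, and 2 and 1 to untreated replicates 1 and 2, where 65.9% of all such sites belonged to a treated list. All 6 sites with a peak in 3 lists lacked that of untreated replicate 1, as 18.6% of all such sites did. Peaks in the window numbered 55 and 57 in the treated lists, against 28 and 33 in the untreated lists, a ratio of 1.84 where that of the full lists was 1.14. The strongest site, from 861489 to 863860, held 4 peaks in each treated list and had a coverage of 53 and 98 there, against 46 and 51 with 2 and 3 peaks in the untreated lists. To the right of the gained site, the site from 912566 to 913125 had 43 and 71 in the treated libraries, against 39 and 34 in the untreated libraries. Its neighbour from 911663 to 912204 had 23 and 33, against 20 and 15. The treated libraries lay above the untreated ones at each of these 3 sites, and below them at the site to the right of the gained one, from 891714 to 893223. The groups overlapped at another strong site, from 923492 to 924001. There the coverage was 23 and 48 in the treated libraries, against 50 and 32 in the untreated libraries.

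The authors' peak score, which was scaled to a total of 1000000 in each list, gave a level for each window in each library. The score was proportional to −log10 p, rounded down to 1 decimal. For BRD9 and TRIP13 the summed score was 222 in each treated library, against 89.5 and 106 in untreated replicates 1 and 2, a ratio of means of 2.28. Without the gained site the ratio was 2.18, and without the strongest site as well it was 2.01, so the higher level was spread over the window. For SIPA1L3 it was 464 and 479 in the treated libraries, against 358 and 362 in the untreated libraries, a ratio of 1.31, and 1.26 without the gained site. For CDH13 it was 537 and 492 in the treated libraries, against 453 and 424 in the untreated libraries, a ratio of 1.17, and 1.14 without the gained site.

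The groups did not overlap in these 3 windows, nor in that of TMEM135 with the gained site included. How often the groups are apart in other windows of the genome was not counted, so nothing is read from this. The score of TMEM135 was 61.7 and 68.9 in the treated libraries, against 57.9 and 54.6 in the untreated libraries. Without the gained site it was 51.6 and 59.5 in the treated libraries, and the groups overlapped. That site made up 16.4% and 13.7% of the score of the window in treated replicates 1 and 2, against 2.00% to 8.15% in the other 4 windows. For MXRA7 the score was 135 and 173 in the treated libraries, against 159 and 156 in the untreated libraries, so the treated libraries lay on either side of the untreated ones.

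**Figure D4:**
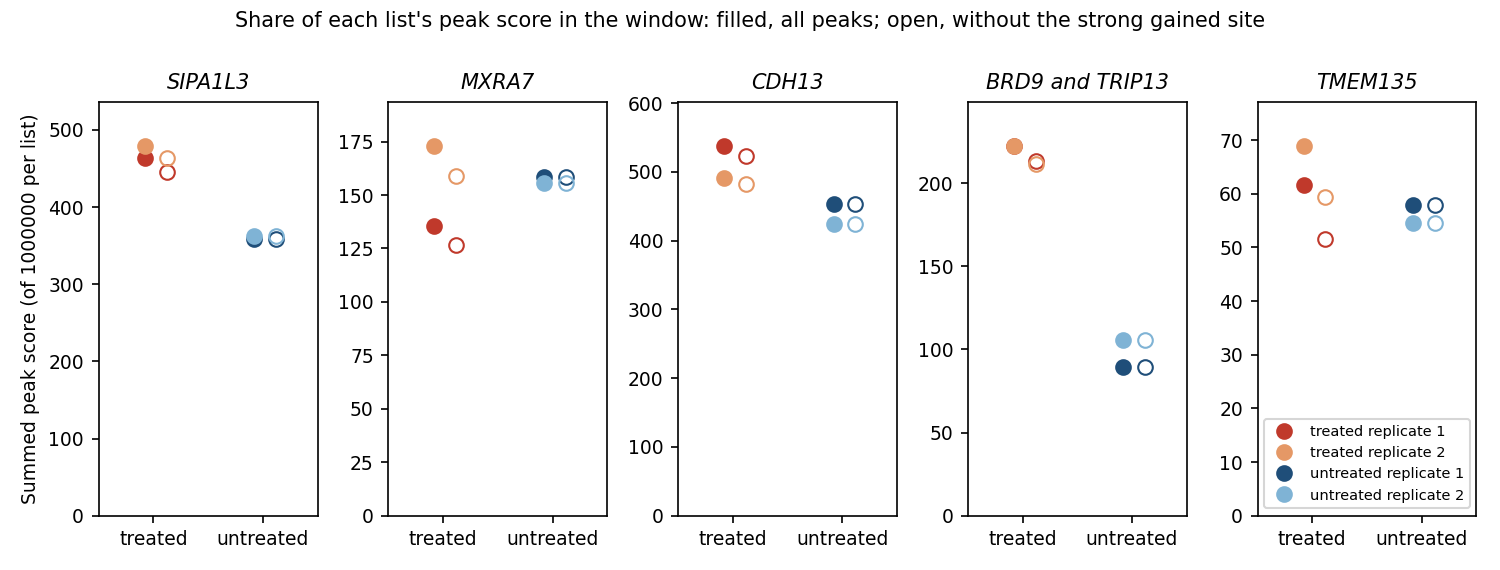
Sum of the authors' peak scores in each window, out of 1000000 per list, in the treated and the untreated libraries, with each point a library, filled for all peaks and open without the strong gained site. The gap between groups is widest at BRD9 and TRIP13, where the treated libraries have 222 each and the untreated libraries 89.5 and 106, and it is hardly changed by leaving out the gained site.

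Sites with a peak in all 4 lists do not enter the rule, although they come from the same contrast. The windows held 136 of them, 26.3% of their sites, where 28.2% of all sites were of this kind. Their median log2 ratio of mean treated to mean untreated coverage was −0.33, against −0.55 over all 105414 such sites. At these 136 sites, with each treated library taken alone against the untreated mean, the median was −0.66 for treated replicate 1 and −0.17 for treated replicate 2. By window the median was 0.00 for BRD9 and TRIP13, −0.25 for SIPA1L3, −0.30 for TMEM135, −0.35 for MXRA7 and −0.56 for CDH13. The sites of CDH13 thus lay at the level of all sites, and those of BRD9 and TRIP13 above it. For MXRA7 the median turned to 0.10 without untreated replicate 1. Relative to the median of all such sites, it was 0.30 for SIPA1L3, 0.20 for MXRA7 and 0.25 for TMEM135, and so positive.

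**Figure D5:**
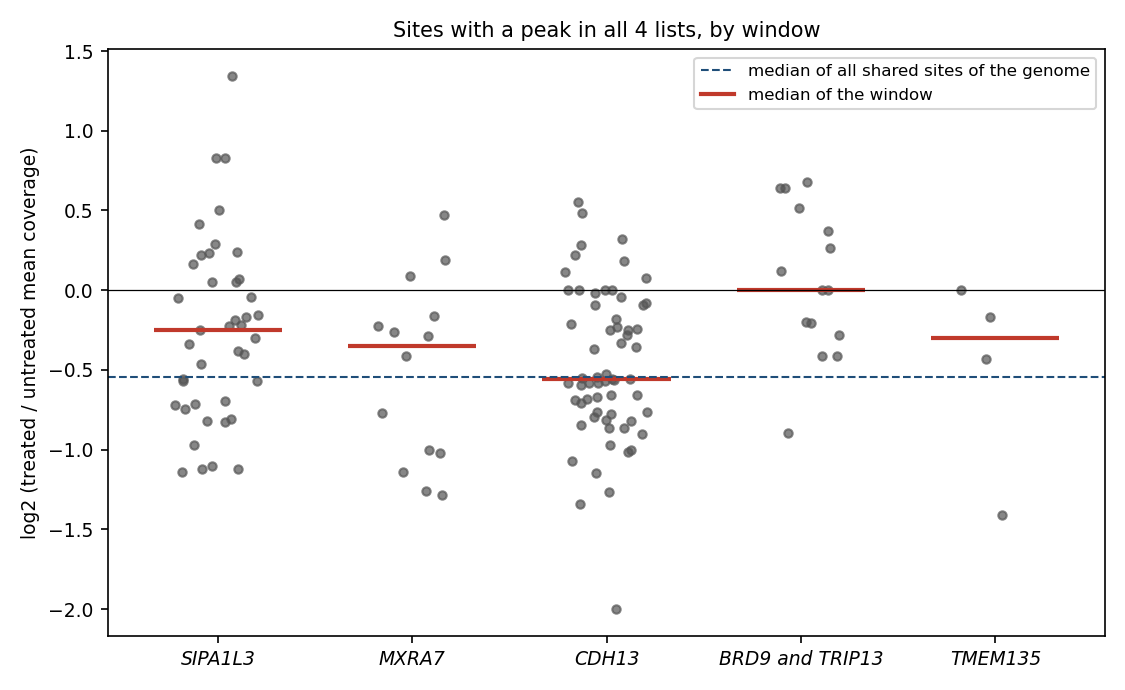
Log2 ratio of mean treated to mean untreated summit coverage at the 136 sites with a peak in all 4 lists, by window, with each point a site, the red line the median of the window and the dashed line the median of −0.55 over all 105414 such sites. The median is 0.00 at BRD9 and TRIP13 and −0.56 at CDH13.

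The ratio differed with the strength of a site. Over all sites of this kind the median log2 ratio was −0.11 at a mean coverage below 10, −0.50 from 10 to below 20 and −0.74 at 20 or more. In the strongest class the 5 sites of BRD9 and TRIP13 had a median of 0.64, with values of 0.68, 0.64, 0.64, −0.21 and −0.89. The median was −0.43 for the 3 sites of TMEM135, −0.58 for the 29 of CDH13, −0.63 for the 18 of SIPA1L3 and −0.77 for the 7 of MXRA7. Among strong sites the median of BRD9 and TRIP13 was thus also above those of the other genes, but its few strong sites went both ways.

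Coverage in each treated library exceeded that in each untreated library at 10 of the 136 sites, where the share over all 105414 was 4.39%. These were 5 of 41 sites at SIPA1L3, 4 of 15 at BRD9 and TRIP13 and 1 of 62 at CDH13, with 0 of 14 at MXRA7 and 0 of 4 at TMEM135. Both lay below at 44 of the 136, against a share of 47.6%. With the coverage of each list divided by its median over these sites, both treated libraries lay above at 47 sites and below at 21, against shares of 27.2% and 22.2%. The count above was then 10 of 15 at BRD9 and TRIP13, 15 of 41 at SIPA1L3, 17 of 62 at CDH13, 5 of 14 at MXRA7 and 0 of 4 at TMEM135.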

How the data were processed

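ATAC-seq peak lists of 4 BCPAP libraries were used. Trimmomatic, Bowtie2, Picard, MACS2 and hg19 are named in the submitters' processing notes; the sources used here give no versions, settings or shift of read ends for the transposase. Peaks were called per library, per the peak names in the files, and nearly all intervals were 500 bp wide as deposited. The score was scaled by the authors to 1000000 per list. The fold enrichment, −log10 p and −log10 q are the authors' deposited values of each peak. In at least 99.9996% of the deposited peaks the fold was a whole number of steps, to a tolerance of 0.001 step, which gave the summit coverage. The deposited offset of the summit gave the start of the original peak, and the letters in peak names its summits.

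Peaks on chromosomes 1 to 22 and X that share at least 1 bp were merged to sites. The coverage of a site in a list was that of its highest peak. The windows were those of the rule: 38380 to 38720 kb of chromosome 19, 74650 to 74725 kb of chromosome 17, 82640 to 83855 kb of chromosome 16, 845 to 935 kb of chromosome 5 and 86730 to 87060 kb of chromosome 11. The genes, the sites named and most alternatives were chosen with earlier results of these data known, and the check of summit letters was added after seeing the peaks. Named sites were the chosen ones, their neighbours, the strongest site, the lost site with the highest lower coverage and the sites with the highest and lowest ratio per window, and other gained sites with 10 or more reads in each treated library. The SIPA1L3 sites with 23 and 20 reads in 1 library and the sites of BRD9 and TRIP13 outside this rule were named after their values were seen. No test was run, since 2 libraries against 2 allow no exact two-sided permutation p below 0.333. Merging was tested on simulated lists. Their sites lay farther apart than the close pairs at CDH13 and at BRD9 and TRIP13, and no peak had several summits. The test therefore does not bear on those pairs. Python 3.11.15, numpy 2.4.6 and pandas 2.3.3 were used. The sequence of the sites and the exons around them were not analysed here, as no hg19 genome or annotation was used.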

Additional observations from a re-analysis of the deposited data

How the results depend on the processing

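The chosen sites all stayed gained when each list was cut to 221110 peaks, when −log10 q had to reach 5, when overlaps had to reach 50%, and without any 1 library. With a merging distance of 150 bp 3 of the 5 did, since the sites of CDH13 and of BRD9 and TRIP13 joined neighbouring sites, that of BRD9 and TRIP13 through a peak of treated replicate 1, and 4 did without sites lacking a peak number or summit letter. The 34 gained sites of the windows became 10 when −log10 q had to reach 5, and 51 to 139 without a library. The 8 lost sites became 14 with an overlap of at least 50%, and 17 to 48 without a library. The median log2 ratio of −0.33 at sites of all 4 lists ranged from −0.58 to −0.11 without a library. It turned to 0.28 with the authors' score in place of coverage (SIPA1L3 0.40, MXRA7 0.30, TMEM135 0.33) and to 0.21 relative to the median of all such sites (0.30, 0.20 and 0.25) by construction. The score differs from coverage both in quantity and in scaling, and these were not separated; over all such sites it gave −0.01. For MXRA7 it ranged from −0.86 without treated replicate 2 to 0.10 without untreated replicate 1. For the 5 windows together it was −0.32 with the replicate block. The replicate numbers mark no shared batch in the labels, and same-numbered libraries deviated with a correlation of −0.05 over all sites of the 4 lists, so the libraries were not paired. Coverages below 4 are not listed, so weak untreated signal at the chosen sites was not detectable.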
